A study of Mus musculus with 18 samples.

Results

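The 10 genes described here encode channels of the skeletal muscle triad and the proteins that build its junctions: Cacna1s, Cacna2d1, Cacnb1, Cacng1 and Stac3 of the voltage sensor, the release channels Ryr1 and Ryr3, the junctophilins Jph1 and Jph2, and the potassium channel gene Kcnn3. They were found by Ensembl identifier, without its version, among the 50600 gene rows of the deposited count tables, and all 10 were among the 13939 genes tested. The cells are C2C12, a mouse myoblast line that leaves the cell cycle and fuses into myotubes when growth medium is replaced. By the labels, a control stable line received a control plasmid, an ERK3-depleted stable line received px459-Mapk6sg, and an MK5-depleted stable line received px459-Mk5sg (px459 carries Cas9 and a guide RNA). ERK3, encoded by Mapk6, is an atypical MAP kinase, and MK5, encoded by Mapkapk5, is a kinase that binds it. RNA was taken from dividing cells in growth medium (GM) and from cells kept in differentiation medium for 2 days (DM2). There were 3 libraries in each of 6 groups and 18 in all. The labels do not say whether the replicates are separate cultures or clones, so p-values measure only the spread between these samples.

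In skeletal muscle the action potential runs down the transverse tubule and moves the voltage sensor, an L-type calcium channel whose pore subunit is the Cacna1s product. The sensor is coupled to the ryanodine receptor of the facing sarcoplasmic reticulum, which releases the calcium that starts contraction. Junctophilins hold the tubule and the reticulum together, and Stac3 is an adaptor that the sensor needs to reach the junction and to trigger release. Triads form during myotube maturation, and the transcripts of many of their proteins appear with the differentiation program.

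The libraries held 17.5 to 23.4 M reads counted in genes (M is 1e6). Values are given as CPM, counts per 1e6 counted reads after TMM scaling. A gene is called where the Benjamini-Hochberg adjusted p of edgeR's quasi-likelihood test over all genes lies under 0.05. Mapk6 stood at 210.2 ± 7.84 CPM (SD, n = 3) in control DM2 and at 116 ± 19.6 in ERK3-depleted DM2, and at 131 ± 17.0 and 118 ± 14.0 in GM. Mapkapk5 stood at 0.580 to 1.55 CPM over all libraries, but RSEM gave it 55.5 ± 3.46 TPM in GM in the control line against 33.3 ± 2.40 in the MK5-depleted line, and 69.2 ± 3.19 and 49.1 ± 8.12 at DM2. Mapkapk5 overlaps Adam1a and Gm42878 on its own strand in GENCODE M21, so its gene count may leave out most of its reads and its CPM does not serve as a level of the transcript. A transcript of an edited gene can still be counted, so these levels check the labels only in part. The differentiating muscle markers (Myog, Mymk, Mymx, Myh3, Ckm, Acta1, Tnnt3 and Mef2c) summed to 2359 to 2745 CPM in control DM2, 1299 to 2035 in ERK3-depleted DM2 and 1344 to 2431 in MK5-depleted DM2, against 54.1 to 193 in GM. At DM2, edgeR called 2 of these 8 lower (Mymk and Ckm) and 1 higher (Mef2c) in the ERK3-depleted line against control. In the MK5-depleted line it called 1 lower (Mymk) and 0 higher. Of all genes, 27.8% were called lower and 28.0% higher in the first comparison, and 22.9% and 22.2% in the second. Summed markers of neurons ran at 11.3 to 47.0 CPM in control DM2, 43.6 to 118 in ERK3-depleted DM2 and 81.2 to 133 in MK5-depleted DM2, with 1, 1 and 2 of the 5 genes at 0. Tubb3 carried that sum, at 22.8 ± 20.2, 86.0 ± 38.9 and 109 ± 26.4 CPM, while Syt1 stood at 0.620 ± 0.181, 0.637 ± 0.069 and 0.469 ± 0.076. Markers of myoblasts summed to 1862 to 2049, 2727 to 3136 and 2528 to 2986 CPM in the same groups. Des carried most of that sum, at 1350 ± 94.4, 2280 ± 211 and 2120 ± 210 CPM. It also rose from GM to DM2 in control (log2 0.47, SE 0.09). Myod1 stood at 201 ± 17.4, 184 ± 2.83 and 191 ± 17.3 CPM. Against control at DM2, edgeR called Des and Pax7 higher in both depleted lines and Myf5 lower in the ERK3-depleted line. Smooth muscle markers summed to 7388 to 8332, 7147 to 8243 and 8065 to 10088 CPM in control, ERK3-depleted and MK5-depleted DM2. Fibroblast markers summed to 80.6 to 134, 77.0 to 106 and 56.7 to 93.1 CPM. Of 4 smooth muscle markers tested, 2 were called higher than control in ERK3-depleted DM2 and 3 in MK5-depleted DM2, with 0 lower. Of 4 fibroblast markers tested, 2 were called lower in each depleted line at DM2 and 0 higher. Endothelial, leukocyte and adipocyte markers summed to at most 0.526, 2.73 and 0.124 CPM in any DM2 library. In bulk RNA, fewer differentiated cells and less RNA per cell cannot be told apart, and the part of these markers in the results was not tested.

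The level of a gene relative to another can be read only per length, in TPM. In control DM2, Cacng1 led with 227 ± 10.2 TPM (mean ± SD, n = 3), followed by Jph2 at 115 ± 4.41, Cacna2d1 at 47.7 ± 0.486, Stac3 at 28.4 ± 2.02 and Cacnb1 at 20.3 ± 0.381. Cacna1s at 11.7 ± 1.42 and Jph1 at 11.3 ± 0.818 overlapped, as did Ryr3 at 3.83 ± 0.711 and Ryr1 at 2.91 ± 0.200, and Kcnn3 came last at 0.713 ± 0.0379. In control GM the first 3 places were the same, with Cacng1 at 55.3 ± 4.95 and Jph2 at 53.4 ± 3.47 overlapping and Cacna2d1 at 39.4 ± 1.07 below them. The auxiliary subunit genes Cacng1 and Cacna2d1 were thus transcribed in dividing myoblasts while the pore, Cacna1s, stood at 0.817 ± 0.314 TPM and Ryr1 at 0.183 ± 0.0971. Cacnb1, the beta subunit gene, lay between them at 3.95 ± 0.633 TPM. Cacng1 and Jph2 were the top pair and Kcnn3 the lowest in all 6 groups.

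**Figure D1:**
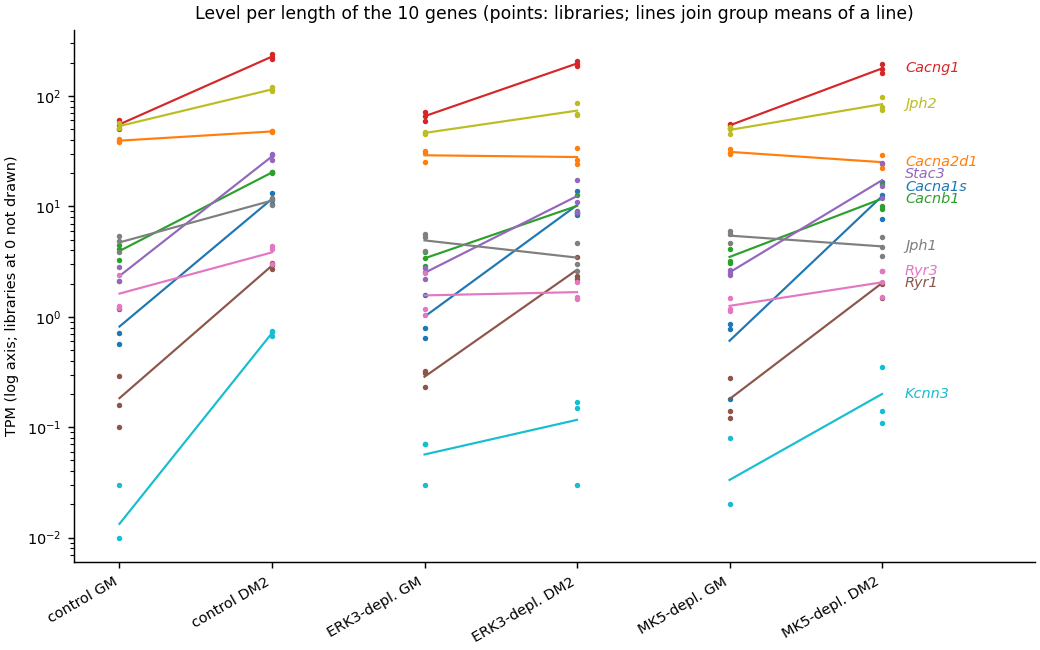
Deposited TPM on a log axis for the 10 genes in the 6 groups. Points are libraries and lines join the GM and DM2 means of a line: Cacng1 and Jph2 are on top throughout, Kcnn3 has the lowest means, and Jph1 rises only in the control line's means.

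In the control line, 9 of the 10 genes rose from GM to DM2 by edgeR and none fell. Among all genes tested 22.5% were called higher in that comparison, and the members' median log2 fold change was 2.18 against -0.02 over all genes. DM2 and GM libraries did not overlap for any of the 10, but the share of all genes without such overlap was not taken. In the ERK3-depleted line 8 rose (28.9% of all genes were called higher) with a median of 1.54, and in the MK5-depleted line 8 rose (24.6% of all genes) with a median of 1.95. Jph1 was called in control alone, Kcnn3 in all but the ERK3-depleted line and Cacna2d1 in the ERK3-depleted line alone. By edgeR's test of the difference from the control response, Cacna2d1 was not called in the ERK3-depleted line (log2 0.09, SE 0.17, adjusted p = 0.706). Kcnn3 was not called by that test in the MK5-depleted line (-1.91, SE 1.23, adjusted p = 0.278). The differences in response that were called are given further on.

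**Figure D2:**
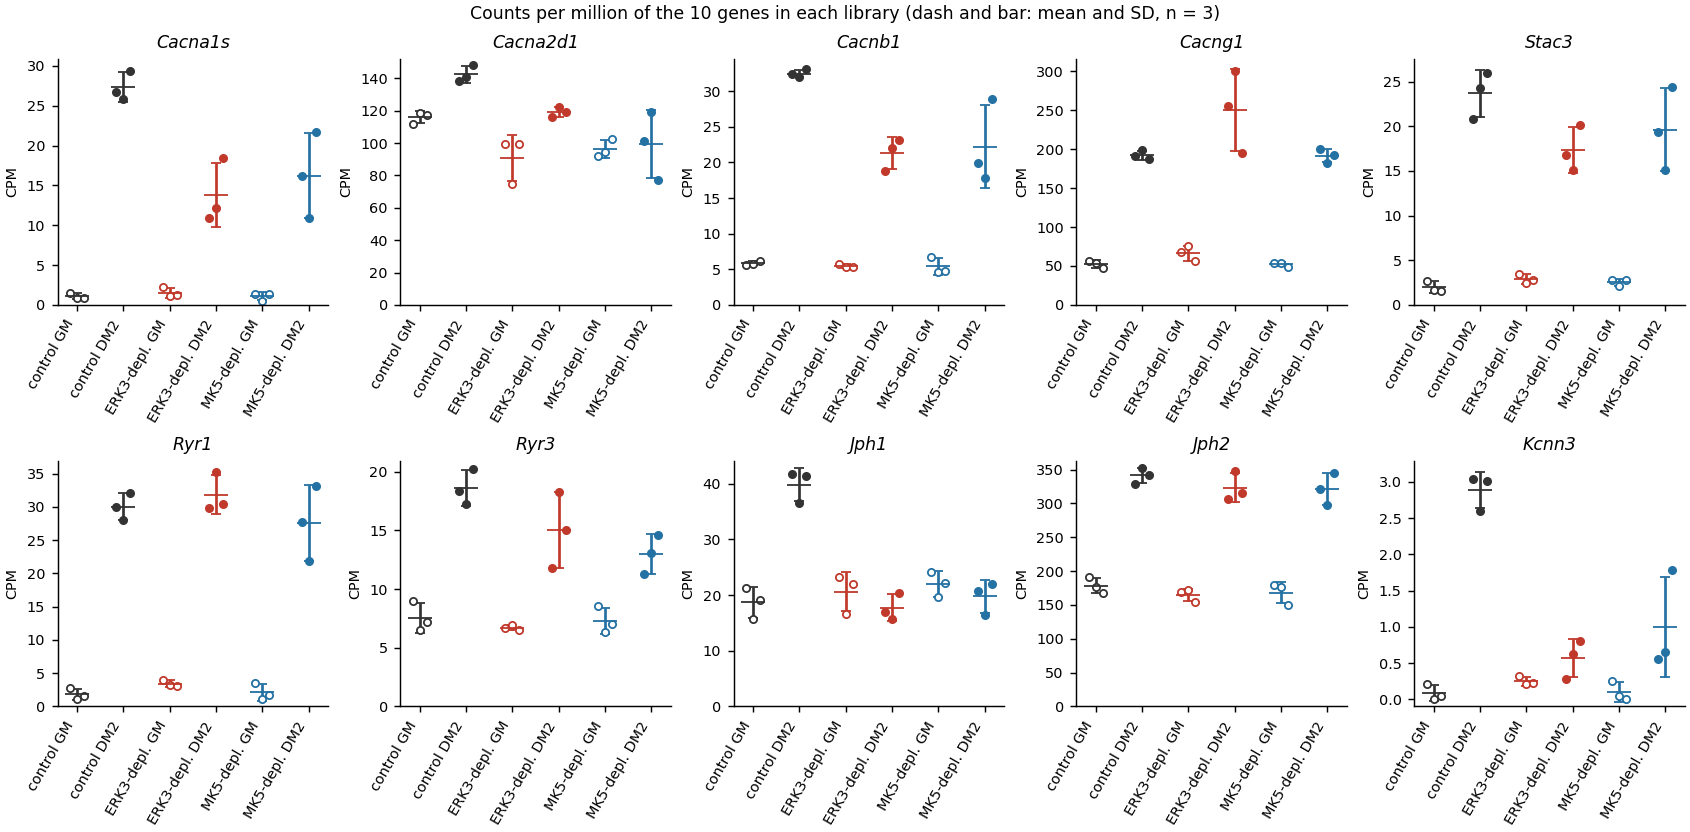
CPM of each gene in each library, with the mean and SD of the 3 libraries of a group. The DM2 points lie above the GM points in every line for Cacna1s, Cacnb1, Cacng1, Stac3, Ryr1, Ryr3 and Jph2, while for Jph1 only the control DM2 libraries (36.5 to 41.7) stand clear of the others.

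Cacna1s, the voltage sensor's pore subunit, was counted at 1.55, 0.922 and 0.901 CPM in control GM and at 26.7, 25.8 and 29.4 in control DM2, a log2 fold change of 4.61 (SE 0.33, adjusted p = 6.71e-09). In the ERK3-depleted line it went from 2.20, 1.08 and 1.21 to 10.96, 12.2 and 18.4, and in the MK5-depleted line from 1.38, 0.485 and 1.42 to 16.1, 10.9 and 21.7. Every DM2 library of the depleted lines lay below every control DM2 library and above every GM library. At DM2 the ERK3-depleted mean was 50.7 ± 14.7% of control and the MK5-depleted mean 59.5 ± 19.7%. These differences were called at log2 -0.98 (SE 0.25, adjusted p = 0.00345) and -0.75 (SE 0.25, adjusted p = 0.0217). The second call was lost without control DM2 replicate 3 (-0.69, adjusted p = 0.0678), MK5-depleted DM2 replicate 1 (-0.73, adjusted p = 0.0688) or replicate 2 (-0.52, adjusted p = 0.118). Neither was called with the 3′ read measure described below as a covariate, at 0.14 (adjusted p = 0.907) and -0.13 (adjusted p = 0.804), so the ERK3-depleted difference changed sign. Cacna1s lies on chromosome 1, 136052750 to 136119822, plus strand (GRCm38). The 189 bases upstream of its annotated start are shown because the gene had one of the steepest rises, with matches to the E-box CANNTG, to its form CAGCTG and to the MCAT box CATTCC in capitals, on either strand.

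Cacna1s chr1:136052561-136052749: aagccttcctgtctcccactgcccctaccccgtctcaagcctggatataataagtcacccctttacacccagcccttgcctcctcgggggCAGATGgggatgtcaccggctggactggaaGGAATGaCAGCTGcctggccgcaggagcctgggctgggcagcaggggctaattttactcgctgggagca

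The capitals mark an E-box, an MCAT box read on the opposite strand as GGAATG, and the E-box CAGCTG 1 base after it. E-boxes are bound by MyoD and myogenin and the MCAT box by TEAD factors. In the 250 bases before the RefSeq start the 2 E-boxes begin at -160 and -123 and the MCAT box at -130. Among 32851 RefSeq promoter windows of that length (GRCm38.p6), 66.2% held CANNTG, 13% CAGCTG, 12.6% CATTCC and 2.92% a MEF2 site on either strand. The Cacna1s window held no MEF2 match. These matches describe the letters only. Windows were found for 6 of the 10 genes (Cacna1s, Cacna2d1, Cacnb1, Ryr1, Jph2 and Kcnn3).

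The last 20.0% of the Cacna1s exon bases (1309 of 6550) lie under exons of Gm37759, a gene on the opposite strand, so a read there is counted in the reverse-strand column and dropped in the unstranded one. The unstranded count was 75.6 to 80.6% of the reverse count in control DM2, 18.3 to 38.1% in ERK3-depleted DM2 and 32.2 to 43.0% in MK5-depleted DM2. The Cacna1s reads of the depleted DM2 libraries were thus drawn more from the 3′ end, and the groups did not overlap. In GM, with 10 to 41 reverse counts a library, the share ran from 44.8 to 81.8%. The mean transcript length that RSEM assigned to the gene was 3151 to 3623 bases in control DM2, 1237 to 1598 in ERK3-depleted DM2 and 1401 to 1629 in MK5-depleted DM2. On unstranded counts the Cacna1s difference at DM2 grew to log2 -2.48 (adjusted p = 3.36e-05) for ERK3-depleted and -1.76 (adjusted p = 0.000673) for MK5-depleted against control. On log2(TPM + 1) with limma it was -0.20 (adjusted p = 0.513) and 0.02 (adjusted p = 0.950). Those TPM fits were not scaled between libraries, and the median of all genes lay at -0.46 and -0.29 in them, so relative to it Cacna1s stood at 0.26 and 0.32.

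The same shift was present across the libraries. For 260 genes overlapped by an opposite-strand gene at their 3′ end, the median unstranded share was 83.4, 81.7 and 81.3% in the control DM2 libraries, 55.8, 52.1 and 68.0% in ERK3-depleted DM2 and 66.0, 65.9 and 74.9% in MK5-depleted DM2. All 9 GM libraries lay between 74.4 and 80.8%. For 173 genes overlapped at the 5′ end it went the other way, 93.3 to 95.1% in control DM2, 97.7 to 100.6% in ERK3-depleted DM2 and 94.9 to 99.9% in MK5-depleted DM2. Replicates 1 and 2 of each depleted line were the lowest on the 3′ measure, and they also had the most reads outside genes (3.96 to 7.73%, against 2.44 to 3.05% in control DM2). This 3′ read measure moved with the line at DM2: groups accounted for 83.6% of its variance, and its part in the differences at DM2 cannot be fully told apart from that of the line. Values with it as a covariate, a fit chosen after seeing the data, are given with the differences at DM2.

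**Figure D3:**
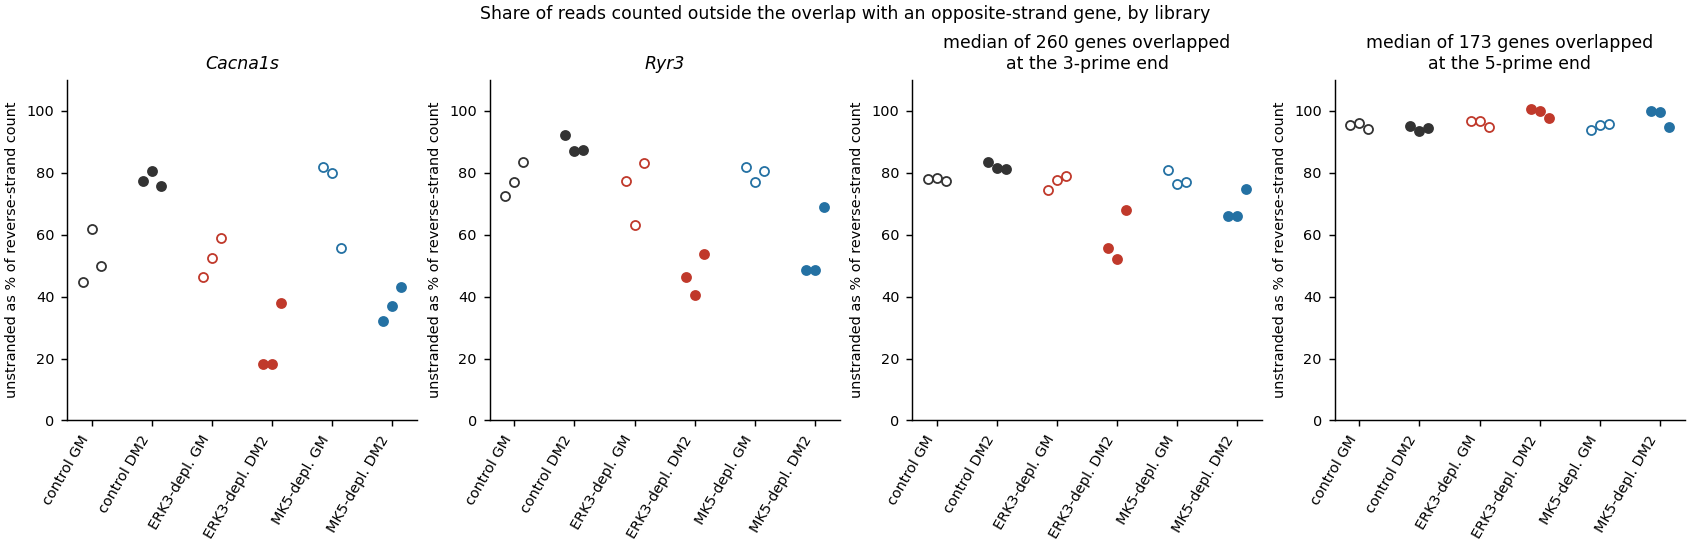
Unstranded count as a percentage of the reverse-strand count by library, for Cacna1s, for Ryr3, and as the median over 260 genes overlapped at the 3′ end and 173 overlapped at the 5′ end. A low value on the first 3 panels means reads drawn toward the 3′ end, and every depleted DM2 library lies below every control DM2 library there.

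Cacnb1 encodes the cytoplasmic beta subunit that brings the pore to the membrane. It was counted at 5.65, 5.75 and 6.16 CPM in control GM and 32.4, 31.96 and 33.1 in control DM2, a log2 fold change of 2.47 (SE 0.16, adjusted p = 1.87e-09). ERK3-depleted DM2 libraries held 18.8, 22.1 and 23.1 CPM and MK5-depleted DM2 libraries 19.9, 17.9 and 28.8, all under the control DM2 values and over every GM value. Against control at DM2 Cacnb1 was lower by log2 -0.61 (SE 0.15, adjusted p = 0.00229) in the ERK3-depleted and -0.55 (SE 0.15, adjusted p = 0.00627) in the MK5-depleted line. With the 3′ read measure as a covariate these were 0.04 (adjusted p = 0.958) and -0.20 (adjusted p = 0.470).

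Cacng1, the gamma subunit that damps the channel's current, was counted at 56.3, 53.4 and 46.8 CPM in control GM and 191, 199 and 187 in control DM2, a log2 fold change of 1.88 (SE 0.13, adjusted p = 2.88e-09). The rise was 1.91 in the ERK3-depleted and 1.87 in the MK5-depleted line. At DM2 the ERK3-depleted libraries stood at 256, 299.9 and 195 CPM and overlapped with control, and Cacng1 was called higher by log2 0.38 (SE 0.12, adjusted p = 0.0149). The call was lost without ERK3-depleted DM2 replicate 2 (0.22, adjusted p = 0.133), the library lowest on the 3′ measure. It turned to -0.01 (adjusted p = 0.908) with offsets for gene length and GC content and to -0.20 (adjusted p = 0.692) with the 3′ read measure as a covariate. MK5-depleted DM2 libraries held 200.2, 183 and 193 CPM (log2 -0.0039 against control, adjusted p = 0.984). With the length and GC offsets Cacng1 was called lower in MK5-depleted DM2 (-0.33, adjusted p = 0.00689), and also on log2(TPM + 1) by limma (-0.36, adjusted p = 0.00519), where it lay -0.06 from the median of all genes.

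Cacna2d1, the extracellular alpha2delta subunit, had the smallest change of the 10 from GM to DM2 in the control and MK5-depleted lines. It was counted at 112, 119 and 118 CPM in control GM and 138, 141 and 148 in control DM2, without overlap, and the log2 fold change of 0.30 (SE 0.12) missed the threshold at adjusted p = 0.0556. DESeq2 called it (0.30, adjusted p = 0.0437), as did 10 other alternatives. In the ERK3-depleted line it rose by 0.39 (adjusted p = 0.0121), a call lost without ERK3-depleted GM replicate 2 (0.26, adjusted p = 0.0780), which at 74.6 CPM was the lowest library in GM. The change turned to -0.058 on log2(TPM + 1) by limma (adjusted p = 0.712; 0.21 above the median of all genes), to 0.09 with the 3′ read measure as a covariate (adjusted p = 0.790) and to -0.0034 with that measure and the replicate block (adjusted p = 0.994). At DM2 the MK5-depleted libraries, at 101, 119 and 77.3 CPM, lay under all control libraries and were called lower by log2 -0.52 (SE 0.12, adjusted p = 0.00240). With the 3′ read measure as a covariate that difference was -0.75 (adjusted p = 0.00540). In the ERK3-depleted line the difference was -0.26 (adjusted p = 0.0847), and -0.64 with the covariate (adjusted p = 0.183). Cacna2d1 also lay under all control libraries in GM in both depleted lines. The log2 differences there were -0.35 (adjusted p = 0.0913) for ERK3-depleted and -0.27 (adjusted p = 0.190) for MK5-depleted. Neither was called by edgeR, though each was under some alternatives. The response of the MK5-depleted line was not called different from control (-0.25, adjusted p = 0.309).

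Stac3, the adaptor of the sensor, was counted at 2.72, 1.67 and 1.502 CPM in control GM and 20.8, 24.3 and 25.9 in control DM2, a log2 fold change of 3.60 (SE 0.22, adjusted p = 6.75e-10). It rose by 2.58 (SE 0.21) in the ERK3-depleted and by 2.95 (SE 0.21) in the MK5-depleted line. At DM2 ERK3-depleted libraries held 16.7, 15.1 and 20.1 CPM, all under control, and Stac3 was called lower by log2 -0.45 (SE 0.18, adjusted p = 0.0386). The call did not hold without control DM2 replicate 2 (-0.44) or 3 (-0.38) or ERK3-depleted DM2 replicate 1 (-0.42) or 2 (-0.37), with adjusted p from 0.0903 to 0.136. The Stac3 difference changed sign and was not called with the 3′ read measure as a covariate (0.23, adjusted p = 0.779). On log2(TPM + 1) by limma it was larger, at -1.18 (adjusted p = 0.000245), or -0.72 from the median of all genes. MK5-depleted libraries, at 19.4, 15.1 and 24.4 CPM, overlapped with control (-0.27, adjusted p = 0.220). The difference was called without MK5-depleted DM2 replicate 3 (-0.47, adjusted p = 0.0489), with length and GC offsets (-0.57, adjusted p = 0.0266) and on log2(TPM + 1) by limma (-0.74, adjusted p = 0.0113). With the 3′ covariate it was 0.10 (adjusted p = 0.789).

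Ryr1 encodes the release channel that the sensor opens. It was counted at 2.77, 1.19 and 1.60 CPM in control GM and 30.1, 27.97 and 32.1 in control DM2, a log2 fold change of 4.04 (SE 0.29, adjusted p = 6.35e-09). It rose by 3.21 (SE 0.27) in the ERK3-depleted and 3.65 (SE 0.28) in the MK5-depleted line. At DM2 the levels overlapped with control: 29.9, 35.2 and 30.4 CPM for the ERK3-depleted line and 27.7, 21.8 and 33.2 for the MK5-depleted line. The differences were log2 0.08 (SE 0.22, adjusted p = 0.772) and -0.12 (SE 0.23, adjusted p = 0.676), and 0.35 (adjusted p = 0.764) and 0.02 (adjusted p = 0.975) with the 3′ covariate. Ryr1 reads did not move between unstranded and reverse counting (98.3 to 103.7% in DM2 libraries of control and ERK3-depleted cells), its overlap with opposite-strand exons being 4.19% of its exon bases and internal. In GM the ERK3-depleted libraries held 3.97, 3.28 and 3.07 CPM, above all control GM libraries, a log2 difference of 0.91 (SE 0.34) that missed the threshold (adjusted p = 0.104). It was called without control GM replicate 1 (1.30, adjusted p = 0.0369) and by DESeq2 (0.91, adjusted p = 0.0310). Ryr1 lies on chromosome 7, 29003344 to 29125179, minus strand. Its upstream sequence is shown beside that of Cacna1s because both genes rose over 16-fold in control cells, and it held none of the 4 motifs.

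Ryr1 chr7:29125180-29125401: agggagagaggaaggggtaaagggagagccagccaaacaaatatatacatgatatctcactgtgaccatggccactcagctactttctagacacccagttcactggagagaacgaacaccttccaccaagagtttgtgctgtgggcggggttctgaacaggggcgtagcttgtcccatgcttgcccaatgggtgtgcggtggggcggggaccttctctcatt

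Ryr3, the release channel of immature and some mature fibres, was counted at 8.96, 6.50 and 7.21 CPM in control GM and 18.4, 17.3 and 20.2 in control DM2, a log2 fold change of 1.30 (SE 0.16, adjusted p = 2.98e-06). It rose by 1.16 (SE 0.16) in the ERK3-depleted and 0.83 (SE 0.16) in the MK5-depleted line. The first of these Ryr3 calls was lost on log2(TPM + 1) by limma (0.10, adjusted p = 0.724; 0.37 above the median of all genes). At DM2 it stood at 11.8, 18.3 and 15.1 CPM in ERK3-depleted libraries, overlapping with control (log2 -0.31, adjusted p = 0.0962), and at 11.3, 13.05 and 14.6 in MK5-depleted libraries, under all control libraries (-0.52, SE 0.15, adjusted p = 0.0111). The first was called without ERK3-depleted DM2 replicate 2 (-0.48, adjusted p = 0.0214), and the second was not without MK5-depleted DM2 replicate 1 (-0.42, adjusted p = 0.0729). Ryr3 was called in neither line with the 3′ read measure as a covariate (-0.17, adjusted p = 0.847, and -0.44, adjusted p = 0.171). The last 4.83% of its exon bases (916) lie under Aven on the opposite strand, and the unstranded share of its counts was 87.1 to 92.1% in control DM2, 40.7 to 53.8% in ERK3-depleted DM2 and 48.5 to 69.1% in MK5-depleted DM2. On unstranded counts the ERK3-depleted difference was -1.23 (adjusted p = 8.94e-05). In TPM, Ryr1 over Ryr3 within a library was 0.0664 to 0.242 in control GM and 0.658 to 0.977 in control DM2. It was 1.45, 1.70 and 1.59 in ERK3-depleted DM2, above control, and 1.32, 0.575 and 1.25 in MK5-depleted DM2. The part of the 3′ shift in this ratio was not tested.

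The junctophilins parted. Jph2, the form also used in heart, was counted at 191, 177 and 168 CPM in control GM and 329, 352 and 343 in control DM2, a log2 fold change of 0.94 (SE 0.09, adjusted p = 8.77e-08). The rise was 0.97 (SE 0.09) in the ERK3-depleted and 0.93 (SE 0.09) in the MK5-depleted line. DM2 levels of 307, 348 and 315 CPM for the ERK3-depleted line and 321, 298 and 344 for the MK5-depleted line overlapped with control. The differences were log2 -0.08 (SE 0.08, adjusted p = 0.446) and -0.09 (SE 0.08, adjusted p = 0.413), and -0.07 (adjusted p = 0.886) and -0.08 (adjusted p = 0.673) with the 3′ covariate. On log2(TPM + 1) by limma Jph2 was called lower in both (-0.64, adjusted p = 0.000122, and -0.45, adjusted p = 0.00357), at -0.18 and -0.16 from the median of all genes. Jph2 lies on chromosome 2, 163336242 to 163397993, minus strand, and the 250 bases before its start are shown because it is the junction gene whose rise was of like size in the 3 lines. The capitals mark a CAGCTG E-box.

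Jph2 chr2:163397994-163398243: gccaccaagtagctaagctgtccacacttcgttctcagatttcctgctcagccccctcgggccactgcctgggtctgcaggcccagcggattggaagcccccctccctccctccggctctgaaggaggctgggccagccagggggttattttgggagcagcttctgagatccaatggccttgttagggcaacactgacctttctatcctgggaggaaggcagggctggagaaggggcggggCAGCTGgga

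Jph1, the junctophilin of skeletal muscle, lies on chromosome 1, 16964560 to 17097889, minus strand. It was counted at 21.3, 15.8 and 19.1 CPM in control GM and 41.7, 36.5 and 41.4 in control DM2, a log2 fold change of 1.09 (SE 0.14, adjusted p = 7.50e-06). In the ERK3-depleted line it stood at 23.3, 16.6 and 22.0 CPM in GM and 17.0, 15.7 and 20.4 at DM2. In the MK5-depleted line it stood at 24.2, 19.6 and 22.1 in GM and 20.7, 16.5 and 22.1 at DM2. The GM and DM2 libraries of each depleted line overlapped, with log2 fold changes of -0.22 (SE 0.15, adjusted p = 0.220) and -0.16 (SE 0.15, adjusted p = 0.397). Every depleted DM2 library lay below every control DM2 library. At DM2 the ERK3-depleted mean was 44.4 ± 6.06% of control and the MK5-depleted mean 49.6 ± 7.29%, with log2 differences of -1.17 (SE 0.15, adjusted p = 8.56e-06) and -1.01 (SE 0.14, adjusted p = 6.34e-05).

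The response of Jph1 to the medium differed from control by log2 -1.31 (SE 0.21, adjusted p = 0.00177) in the ERK3-depleted and -1.25 (SE 0.21, adjusted p = 0.00313) in the MK5-depleted line. The first was not called with the 3′ read measure as a covariate (-0.82, adjusted p = 0.367) and the second was (-0.96, adjusted p = 0.0358). Against a 1.5-fold threshold with glmTreat neither was (adjusted p = 0.0587 and 0.169). Without any 1 library the DM2 differences of Jph1 ran from -1.30 to -1.10 and from -1.11 to -0.89, all called. Without the 4 depleted DM2 libraries lowest on the 3′ measure they were -0.97 (adjusted p = 0.00276) and -0.84 (adjusted p = 0.00475), with 1 library left in each depleted DM2 group and its spread taken from the other groups. With the 3′ read measure as a covariate they were -0.66 (adjusted p = 0.253) and -0.72 (adjusted p = 0.0148). Jph1 over Jph2 in TPM was 0.0866 to 0.107 in control DM2, 0.0381 to 0.0545 in ERK3-depleted DM2 and 0.0470 to 0.0534 in MK5-depleted DM2, against 0.0749 to 0.126 over all GM libraries.

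Kcnn3 encodes SK3, a potassium channel opened by calcium that embryonic and denervated muscle fibres carry. It had the fewest counts: 4, 0 and 1 in control GM and 63, 56 and 63 in control DM2, or 3.04, 2.60 and 3.01 CPM. From 5 summed counts to 182, the ratio of rates was 35.4 (95% exact interval 14.9 to 110.5, counting error only), and edgeR gave a log2 fold change of 5.03 (SE 0.65, adjusted p = 5.61e-06), which depends on the prior count. ERK3-depleted libraries held 6, 4 and 4 counts in GM and 5, 10 and 14 at DM2 (log2 1.16, SE 0.68, adjusted p = 0.157). MK5-depleted libraries held 6, 1 and 0 counts in GM and 10, 12 and 34 at DM2 (log2 3.13, SE 0.70, adjusted p = 0.00130). Leaving out 1 library kept both calls of Kcnn3 but moved their size: the control change reached 6.60 without control GM replicate 1, and the MK5-depleted change ran from 2.38 without MK5-depleted DM2 replicate 3 to 4.99 without MK5-depleted GM replicate 1. With the 3′ covariate the ERK3-depleted change was called too (2.81, adjusted p = 0.0323). At DM2 the ERK3-depleted level was 19.6 ± 9.18% and the MK5-depleted level 34.6 ± 23.8% of control, and no library overlapped with control. The log2 differences were -2.34 (SE 0.49, adjusted p = 0.000585) and -1.51 (SE 0.44, adjusted p = 0.00968). The MK5-depleted call was lost without MK5-depleted DM2 replicate 1 (-1.22, adjusted p = 0.0635) or 2 (-1.28, adjusted p = 0.0519). With the 3′ read measure as a covariate the differences were -0.22 (adjusted p = 0.938) and -0.35 (adjusted p = 0.737). The 250 bases before the Kcnn3 start, on chromosome 3, are shown because the gene had the largest fitted rise in control cells; they held none of the 4 motifs.

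Kcnn3 chr3:89519914-89520163: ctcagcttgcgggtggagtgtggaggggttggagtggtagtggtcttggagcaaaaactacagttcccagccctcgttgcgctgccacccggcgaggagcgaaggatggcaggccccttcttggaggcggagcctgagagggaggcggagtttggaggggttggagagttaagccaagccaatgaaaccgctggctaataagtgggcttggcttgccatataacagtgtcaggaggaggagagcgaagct

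Put together, at DM2 the ERK3-depleted line had 5 of the 10 genes called lower and 1 called higher than control, where 27.8% of all genes were called lower and 28.0% higher. The members' median log2 difference was -0.38 against 0.01 over all genes. The MK5-depleted line had 6 called lower and 0 higher, where 22.9% of all genes were called lower and 22.2% higher, with a median of -0.52 against 0.00. With unadjusted p under 0.05 no further member was added in either comparison by edgeR, and DESeq2 called 6 members in each. Both comparisons use the same control libraries. With the 3′ read measure as a covariate the calls were 0 for ERK3-depleted, where Jph1 lay at -0.66, and 2 for MK5-depleted, Jph1 and Cacna2d1. Without the 4 libraries lowest on that measure they were 3 (Jph1, Kcnn3 and Cacnb1) and 2 (Jph1 and Cacna2d1). The count for MK5-depleted cells fell to 3 without MK5-depleted DM2 replicate 1. The shares of all genes called under these alternative fits are not given here. Whether the falls in these counts are particular to the members was not tested.

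**Figure D4:**
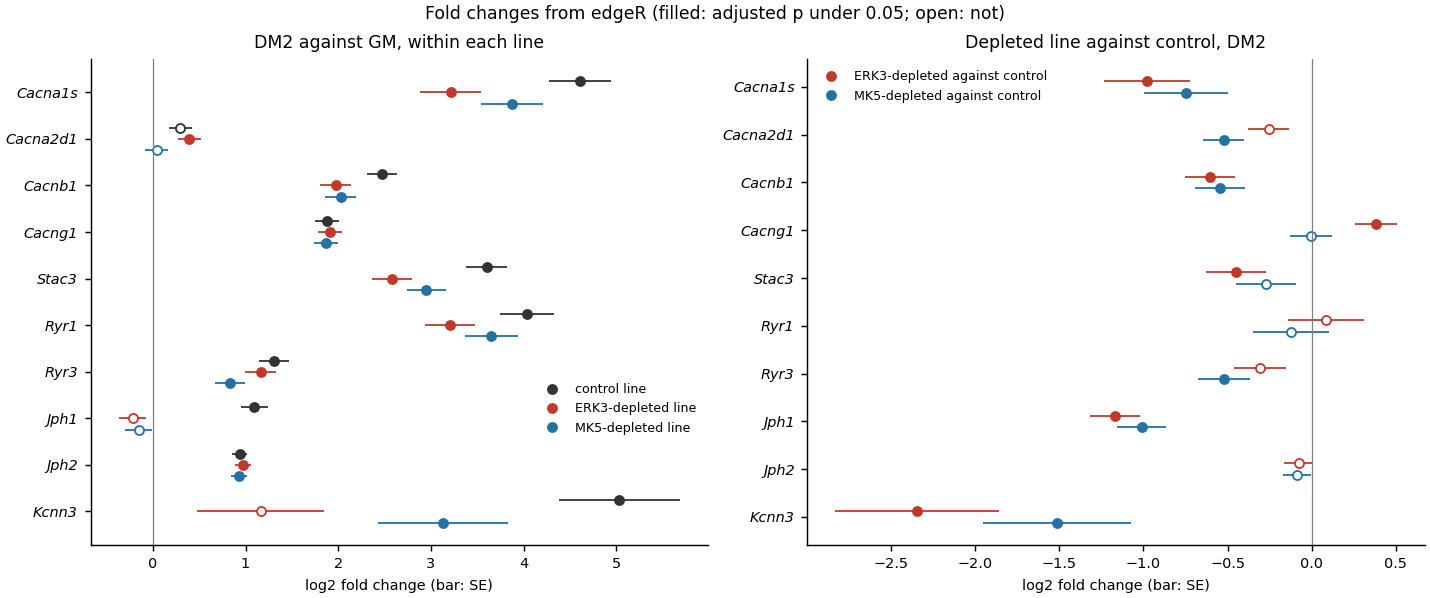
Log2 fold changes with SE for DM2 against GM in each line (left) and each depleted line against control at DM2 (right). Filled points have an adjusted p under 0.05: Jph1 is filled only for control on the left, and Jph1, Kcnn3, Cacna1s and Cacnb1 are filled on the negative side for both lines on the right.

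In GM no member was called by edgeR in either depleted line. For ERK3-depleted against control, 3.72% of all genes were called higher and 3.06% lower; 4 members had an unadjusted p under 0.05, and DESeq2 called 1 (Ryr1). With the replicate number as a block, Cacng1 was called higher (0.35, adjusted p = 0.0286). For MK5-depleted against control, 4.71% of all genes were called higher and 3.74% lower; 1 member, Cacna2d1, had an unadjusted p under 0.05 and DESeq2 called 0. The 2 depleted lines were not separated by edgeR in any member or in any gene tested (0% called in GM and 0% at DM2, in either direction). Unadjusted p under 0.05 was reached by 1 member in GM and 2 at DM2, and DESeq2 called 0 members in both. The largest such difference was Cacng1 at DM2, lower in MK5-depleted cells by log2 -0.38 (SE 0.12, adjusted p = 0.146), which was called without ERK3-depleted DM2 replicate 3 (-0.51, adjusted p = 0.00228). The percentages of all genes in this paragraph are adjusted edgeR calls. Shares of all genes by unadjusted p or by DESeq2 are not given, so member counts by those criteria do not set the members apart.

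The response to the medium itself differed from control in the ERK3-depleted line for 4 members, all weaker, where 14.0% of all genes were called lower in that contrast and 14.6% higher. They were Kcnn3 (-3.87, SE 1.08, adjusted p = 0.0146), Cacna1s (-1.40, SE 0.50, adjusted p = 0.0442), Jph1 and Stac3 (-1.02, SE 0.31, adjusted p = 0.0217). None of the 4 was called with the 3′ read measure as a covariate: Kcnn3 was at -1.83 (adjusted p = 0.715), Cacna1s at -0.33 (adjusted p = 0.919), Jph1 at -0.82 (adjusted p = 0.367) and Stac3 at -0.37 (adjusted p = 0.842). With glmTreat none was called either. The Cacna1s call did not hold without any of 9 of the 12 libraries (-1.68 to -1.01 over all 12), nor the Stac3 call without any of 5 (-1.31 to -0.87). Those 5 were control GM replicates 2 and 3, ERK3-depleted GM replicate 1 and ERK3-depleted DM2 replicates 1 and 2. For Cacna1s the 3 libraries whose loss kept the call were control GM replicate 1, ERK3-depleted GM replicate 2 and ERK3-depleted DM2 replicate 3. In the MK5-depleted line Jph1 was the member called, where 9.48% of all genes were called lower and 8.54% higher. Ryr1 rose less in the ERK3-depleted line by log2 -0.83 (SE 0.40, adjusted p = 0.129), a difference called without control GM replicate 1 (-1.23, adjusted p = 0.0422). It was also called with no filter (-0.87, adjusted p = 0.00287), with the contrast's groups alone (-0.82, adjusted p = 0.0476) and with length and GC offsets (-1.21, adjusted p = 0.0312). On log2(TPM + 1) by limma it was not (-0.23, adjusted p = 0.399). Cacnb1 was not called in the ERK3-depleted contrast (-0.50, SE 0.23, adjusted p = 0.116). It was called there with the contrast's groups alone (-0.49, adjusted p = 0.0302), with length and GC offsets (-0.63, adjusted p = 0.0447) and on both TPM scales. In the MK5-depleted contrast Cacnb1 was called without MK5-depleted DM2 replicate 3 (-0.71, adjusted p = 0.0183) and with the offsets and the replicate block (-0.65, adjusted p = 0.0335).

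**Figure D5:**
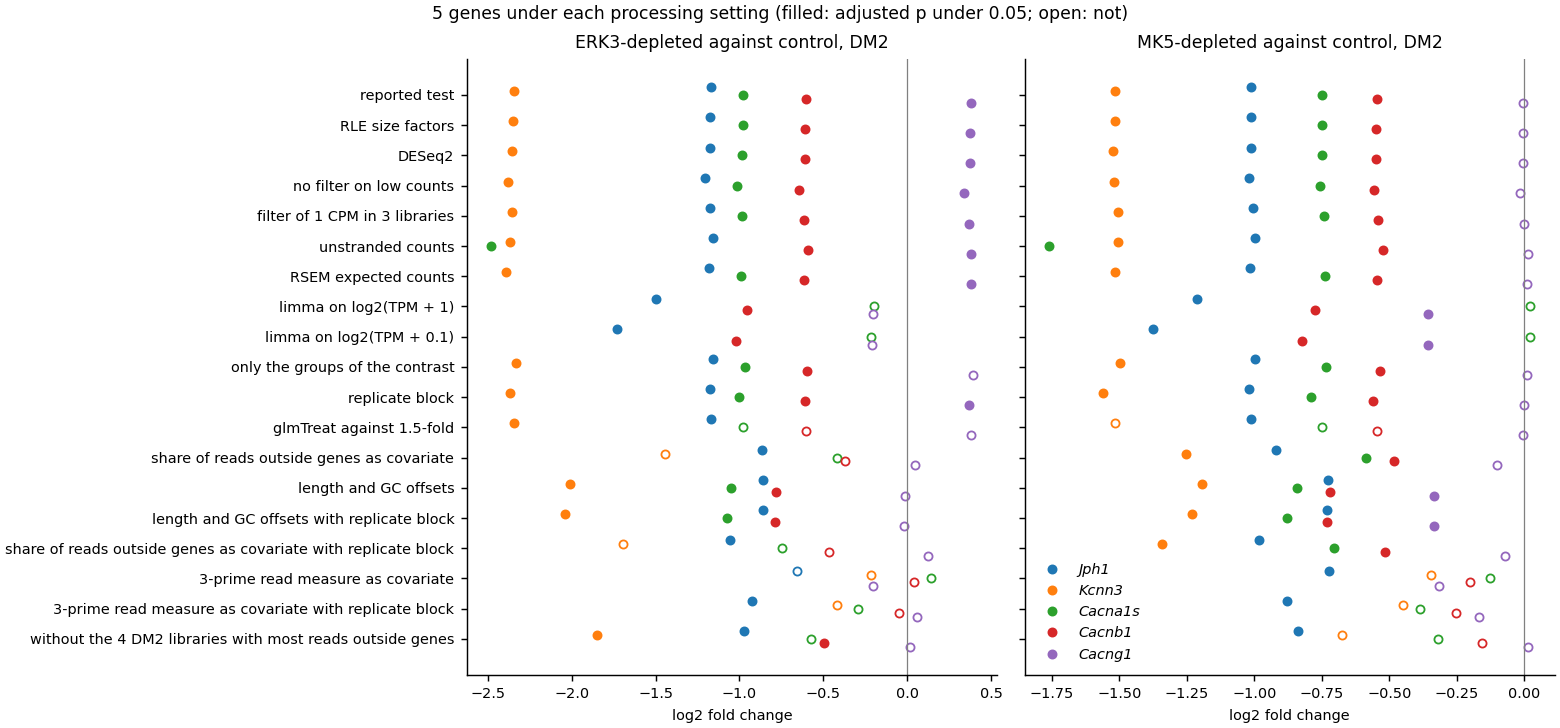
Log2 difference at DM2 of 5 genes between each depleted line and control under each processing setting. Jph1 stays left of zero throughout, from -1.73 to -0.66 in the ERK3-depleted line, while Cacna1s spreads from -2.48 to 0.14 and Cacng1 crosses zero; Kcnn3 was not tested in TPM.

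Over the 18 libraries, the genes outside the set whose log2 CPM followed the members' mean profile most closely were Srl (Pearson r = 0.992), Myom1 (0.990), Dll1 (0.989), Nuak1 (0.989) and Tmem38b (0.988). These are descriptions across libraries that share lines and media. Srl encodes sarcalumenin, a calcium-binding protein of the reticulum, and went from 11.1 ± 2.40 to 248 ± 14.2 CPM in control, reaching 104 ± 26.9 and 114 ± 33.3 in the ERK3- and MK5-depleted lines at DM2. Tmem38b encodes a counter-ion channel of the reticulum and stood at 79.5 ± 4.198 CPM in control DM2, 43.8 ± 2.27 in ERK3-depleted DM2 and 49.5 ± 6.16 in MK5-depleted DM2. Of the members themselves, Jph1 (0.546) and Cacna2d1 (0.575) followed the mean profile least, and the other 8 had r from 0.912 to 0.985. Each member is part of that mean, which raises its r.

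Other genes of excitation-contraction coupling and the triad were read from a list of 34, of which 31 were tested. From GM to DM2, 16 rose and 10 fell in control, 17 rose and 5 fell in the ERK3-depleted line, and 17 rose and 5 fell in the MK5-depleted line. Of all genes tested, 22.5% were called higher and 23.1% lower in control, 28.9% and 26.2% in the ERK3-depleted line, and 24.6% and 24.8% in the MK5-depleted line. Casq2, the calcium buffer calsequestrin-2, rose most in control, from 3.01 ± 0.558 to 155 ± 9.51 CPM (log2 5.69, SE 0.42, adjusted p = 2.74e-08). Cav3, caveolin-3 of the tubule membrane, rose by log2 5.28 (SE 0.43), 4.01 (SE 0.38) and 4.13 (SE 0.38) in the control, ERK3-depleted and MK5-depleted lines. Against control at DM2, 9 were higher and 11 lower in the ERK3-depleted line, and 7 higher and 7 lower in the MK5-depleted line, with medians of -0.13 and -0.06 and all-gene shares of 28.0% higher and 27.8% lower, and 22.2% and 22.9%. Casq2 was lower in both, at 44.2 ± 14.8 CPM (log2 -1.81, SE 0.33, adjusted p = 0.000256) and 51.6 ± 20.9 CPM (-1.59, SE 0.32, adjusted p = 0.00111). Rrad, a small G protein that restrains calcium channels, was lower by -1.32 (SE 0.18) and -1.27 (SE 0.18). Trdn, triadin, which anchors calsequestrin to the release channel, was higher in the ERK3-depleted line at 340.1 ± 184 against 102 ± 4.27 CPM (1.74, SE 0.37, adjusted p = 0.00117), with a wide spread between its libraries.

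Of 30 listed paralogues of the 10 genes, 11 were tested. Ryr2, the cardiac release channel, had at most 0.0548 CPM in any library, and Cacna1c, the cardiac pore, at most 0.0971. In control DM2 against GM 2 paralogues rose and 3 fell, near the all-gene shares of 22.5% higher and 23.1% lower. Cacna1a, a neuronal pore, went from 3.73 ± 0.470 to 0.824 ± 0.246 CPM (log2 -2.17, SE 0.27, adjusted p = 3.26e-06), and Kcnn4, an intermediate-conductance potassium channel, from 42.5 ± 1.66 to 17.7 ± 1.55 CPM (-1.26, SE 0.12, adjusted p = 1.43e-07). Against control at DM2, Kcnn4 was higher in both depleted lines, at 27.6 ± 5.84 CPM (0.64, SE 0.12, adjusted p = 0.000282) and 25.6 ± 1.97 CPM (0.53, SE 0.12, adjusted p = 0.00200). Kcnn3 and Kcnn4 thus moved in opposite directions in each of these comparisons. Cacnb2, a cardiac and neuronal beta subunit, was lower at 4.44 ± 1.44 and 3.53 ± 1.30 against 9.87 ± 0.733 CPM (log2 -1.16, SE 0.23, and -1.48, SE 0.23). In GM, Kcnn1 was lower in both depleted lines (-0.61, SE 0.16, adjusted p = 0.0271, and -0.52, SE 0.15, adjusted p = 0.0428).

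Among 26 genes of surface excitability and calcium entry or removal, 22 were tested. In control, 13 rose and 5 fell from GM to DM2 (22.5% and 23.1% of all genes), led by Scn4a, the muscle sodium channel (log2 4.48, SE 0.65, adjusted p = 2.16e-05), and Kcnj12, an inward rectifier (3.48, SE 0.32). Against control at DM2, 3 were higher and 9 lower in the ERK3-depleted line, and 2 higher and 7 lower in the MK5-depleted line. Of all genes 28.0% were higher and 27.8% lower in the first comparison and 22.2% and 22.9% in the second. Slc8a1, the sodium-calcium exchanger, was lower in both, at 2.34 ± 1.94 and 4.84 ± 2.96 against 21.2 ± 2.02 CPM (-3.17, SE 0.41, adjusted p = 1.13e-05, and -2.12, SE 0.37, adjusted p = 0.000287). Itpr2, an intracellular release channel opened by IP3, was higher in the ERK3-depleted line at 45.9 ± 13.1 against 20.1 ± 0.474 CPM (1.19, SE 0.19, adjusted p = 5.63e-05). Kcnj2, the inward rectifier of early myoblast hyperpolarisation, was lower in the MK5-depleted line in GM (-0.66, SE 0.15) and at DM2 (-1.52, SE 0.16). These lists share the control libraries and the DM2 libraries with the 3′ shift, whose part in their changes was not tested.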

How the data were processed

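RNA of 18 C2C12 libraries, 3 in each of 6 groups set from the labels, was poly-A selected and made into stranded libraries, per the labels. The deposited counts are whole reads per gene in unstranded, forward and reverse columns. The submitters' processing notes name bcl2fastq 2.17, STAR 2.5.1b, RSEM 1.2.28 and GRCm38. The reverse column was used, since it held 92.8 to 95.3% of stranded gene counts; summary lines (21.7 to 35.8% of reads) were left out. RSEM made the other deposited values, expected counts and, per the file headers, deposited TPM; expected counts were rounded for an alternative, and TPM served for levels between genes. Symbols and positions came from GENCODE M21 (50376 of 50600 identifiers matched).

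Genes kept by filterByExpr (13939) were fitted in edgeR 4.0.16 (R 4.3.3) with TMM, a mean for each group and robust quasi-likelihood dispersions. The 11 contrasts were adjusted by Benjamini-Hochberg over all genes. The SE is the size of the log2 fold change over the square root of F. On simulated counts the fit was tested first. The members, the lists and the comparisons were chosen with earlier results of these data known. All 10 members are named throughout; of each list, up to 3 called genes with the largest change in a comparison and at least 1 CPM in the higher group could be named, and those shown are some of them. Ryr2 and Cacna1c were named after their values were seen.

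Alternatives were RLE factors, DESeq2 1.42.0, other filters, unstranded and expected counts, limma 3.58.1 on log2(TPM + 1) and log2(TPM + 0.1), the contrast's groups alone, a replicate block, an adjusted p under 0.01, glmTreat against 1.5-fold, a covariate for the percentage of reads outside genes, length and GC offsets (splines, 5 degrees of freedom), libraries left out, and, chosen after seeing the data, the 3′ read measure as a covariate and the block joined to the covariates and offsets. The 3′ measure is the median unstranded percentage of reverse counts over genes with at least 100 counts in every library and 10 to 50% of exon bases under opposite-strand exons at that end. Same-numbered libraries deviated together (every correlation over 0.1) in 5 of 9 comparisons between groups. In the other 4 not every correlation passed 0.1. Of these, MK5-depleted against control at DM2 (0.165, 0.0553 and 0.0833) and MK5- against ERK3-depleted in GM (0.0704, 0.344 and 0.206) were positive throughout. DM2 against GM in the control and MK5-depleted lines included negative values. The labels do not say what the numbers share.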

Additional observations from a re-analysis of the deposited data

Results flagged for a closer look

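In 5 cases the response to differentiation medium differed from that of the control line by a test of the difference itself (edgeR's quasi-likelihood test, 3 libraries a group). In the ERK3-depleted line the log2 response was smaller by -3.87 for Kcnn3, by -1.40 for Cacna1s, by -1.31 for Jph1 and by -1.02 for Stac3. In the MK5-depleted line it was smaller by -1.25 for Jph1. Kcnn3 rests on 5 counts summed over control GM and 29 over ERK3-depleted DM2. The Jph1 differences kept their call without any of the 12 libraries of their contrast, while those of Cacna1s and Stac3 did not. With the 3′ read measure as a covariate none of the 4 ERK3-depleted differences was called, and that of Jph1 in the MK5-depleted line was (-0.96, adjusted p = 0.0358). Against a 1.5-fold threshold with glmTreat 0 of the 5 were called.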

How the results depend on the processing

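The 42 gene results called were compared with their alternatives in 818 pairs: 716 kept direction and call, 89 lost the call and 13 changed sign. The 42 include the 9, 8 and 8 rises from GM to DM2 in the control, ERK3-depleted and MK5-depleted lines. The pooled figures thus do not measure how the differences between lines hold, which are counted by comparison below. The counts of members called from GM to DM2 stayed within 1.5 times of the reported ones under every alternative run, and without 1 library they ran from 9 to 9, 7 to 8 and 8 to 8 in the control, ERK3-depleted and MK5-depleted lines. The shares of all genes called under the alternatives are not given beside these counts or those below. Causes were not tested.

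For ERK3-depleted against control in GM (0 members) the count was 1 with DESeq2, 3 with no filter, 1 with the replicate block, 1 with the outside-genes covariate, 1 with it and the block, 1 with length and GC offsets and the block, 2 with the 3′ measure, 2 with it and the block and 2 without the 4 DM2 libraries; without 1 library it was 0 to 1. At DM2 (6 members) it was 2 with glmTreat, 1 with the outside-genes covariate, 1 with it and the block, 0 with the 3′ measure, 1 with it and the block, 3 without the 4 libraries, and 5 to 6 without 1 library. For MK5-depleted in GM (0) it was 1 with the contrast's groups alone and 1 with the offsets and the block. At DM2 (6) it was 1 with glmTreat, 2 with the 3′ measure, with and without the block, 2 without the 4 libraries, and 3 to 7 without 1 library. Between the depleted lines at DM2 (0) it was 1 with no filter, 1 with the offsets and the block, and 0 to 1 without 1 library. For the difference in response of the ERK3-depleted line (4) it was 1 at an adjusted p under 0.01, 0 with glmTreat, 1 with the outside-genes covariate, with and without the block, 0 with the 3′ measure, with and without the block, 1 without the 4 libraries, and 2 to 5 without 1 library. For that of the MK5-depleted line (1) it was 3 on unstranded counts, 2 on either TPM scale, 0 with glmTreat, 4 with the offsets and the block, 2 without the 4 libraries, and 1 to 2 without 1 library.

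The sign changes were these. Cacna2d1 from GM to DM2 in the ERK3-depleted line was -0.058 on log2(TPM + 1), -0.060 on log2(TPM + 0.1) and -0.0034 with the 3′ measure and the block. Cacng1 in ERK3-depleted DM2 was -0.21 and -0.21 on the TPM scales, -0.014 with the offsets, -0.019 with the offsets and the block, and -0.20 with the 3′ measure. Cacna1s in MK5-depleted DM2 was 0.023 and 0.020 on the TPM scales. With the 3′ measure, ERK3-depleted DM2 gave 0.14 for Cacna1s, 0.041 for Cacnb1 and 0.23 for Stac3. Kcnn3 was not tested on TPM. Apart from Cacng1 in GM, the replicate block alone changed no member's call.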
